A study of Mus musculus with 24 samples.

Results

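The miRNAs described here are those of 3 hairpins, miR-21a, miR-221 and miR-222, both arms of each, 6 of the 1978 mature mouse miRNAs in the count table. They were taken by name, as miRNAs known from undifferentiated spermatogonia, with earlier results of these data already known. Small RNA was sequenced from 24 libraries, 4 for each of 2 cell types and 3 genotypes. The cells were spermatocytes at the pachytene/diplotene stage of meiosis and round spermatids, the haploid cells that follow it. The males were 10 to 15 weeks old on a C57BL/6J background, and each library came from the testes of 2 to 5 mice. The genotypes were Ago413+/+ (wild type), Ago413+/- (heterozygous) and Ago413-/- (null).

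The Ago413 allele removes all of Ago1 and parts of Ago3 and Ago4, which lie in tandem, so that the null males kept Ago2 as the Argonaute gene left whole. The deletion was constitutive and was carried by the somatic cells of the testis as well as by the germ cells. The fractions were enriched on a BSA gradient to a purity above 70% and were not pure. The loss of the 3 genes was not checked here, because the table counts miRNAs only. The meiotic germ cell miRNAs miR-34b-5p, miR-34c-5p and miR-449a-5p were present in every library. They summed to between 18752 CPM (counts scaled to library size), in null spermatocytes, replicate 2, and 186145 CPM. The sums overlapped between the 2 cell types, so they do not tell the cell types apart, and they do not measure purity.

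A miRNA is cut from 1 arm of a hairpin, loaded into an Argonaute protein and guided to messenger RNAs that match its seed, bases 2 to 8. In the testis, miR-21 is known from cultures rich in spermatogonial stem cells, where it supports their maintenance, and miR-221 and miR-222 are known to hold spermatogonia undifferentiated by repressing the KIT receptor. None of them is restricted to the germ line: miR-21 is abundant in leukocytes, fibroblasts and many other somatic cells, and miR-221 and miR-222 in endothelium.

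The sequences show which members can share targets and which can share reads. RefSeq (GRCm38.p6) gave a mature sequence for 5 of the 6 members and for 1679 of the 1978 miRNAs in the table, and miR-222-5p is named only. In the sequences of the 5 members, the seed is in capitals.
mmu-miR-21a-5p: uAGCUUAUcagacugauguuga
mmu-miR-21a-3p: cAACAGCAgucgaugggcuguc
mmu-miR-221-3p: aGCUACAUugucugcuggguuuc
mmu-miR-221-5p: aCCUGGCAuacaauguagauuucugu
mmu-miR-222-3p: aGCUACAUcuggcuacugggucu

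The 3p arms of miR-221 and miR-222 had the same first 8 bases, and hence the same seed, but matched at only 11 of their 23 positions, so their reads can be told apart. Their hairpins were neighbours on the minus strand of the X chromosome, at chrX:19146294-19146388 for Mir221 and chrX:19146893-19146971 for Mir222, with 504 bp between them and no other annotated gene across either. Mir21a lay at chr11:86584067-86584158 on the minus strand, within a UTR exon of Vmp1, a protein-coding gene of autophagy. The pair thus lies on the chromosome that is silenced in pachytene spermatocytes, and Mir21a lies on an autosome.

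A further 3 miRNAs in the table are close to a member, and they are shown because the counting could have shared reads with them or because their seed is the same. The seed is again in capitals.
mmu-miR-21b: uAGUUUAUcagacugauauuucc
mmu-miR-21c: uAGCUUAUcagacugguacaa
mmu-miR-1928: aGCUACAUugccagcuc

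Counted from 1 at the 5′ end of miR-21a-5p, miR-21b differed from it by C4U, G18A, G21U and A22C and so had another seed. miR-21c had the seed of miR-21a-5p and differed by A16G, G18A, U19C, U20A and G21A. miR-1928 carried the seed of miR-221-3p and miR-222-3p. These near copies held almost no reads: miR-21b and miR-21c had 2 counts each over the 24 libraries, both in the same 2 libraries, and miR-1928 had 0 counts.

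Almost all reads of the 6 members were miR-21a-5p. It had 114062 counts over the 24 libraries, 99.3% of the members' 114864, while miR-221-3p had 492 counts and miR-222-3p 277. The other arms were at the edge of detection, with 25 counts for miR-221-5p, 5 for miR-21a-3p and 3 for miR-222-5p, the last all in heterozygous round spermatids, replicate 2. As a share of both arms, the minor arm was 0.00438% for miR-21a (exact 95% binomial interval 0.00142 to 0.0102), 4.84% for miR-221 (3.15 to 7.06) and 1.07% for miR-222 (0.222 to 3.10). These intervals hold for counting error alone: they pool the 24 libraries and leave out the spread between libraries and groups. No molecular identifiers were used, so PCR copies of 1 molecule are counted as separate reads.

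The leading arm was the same in all 6 groups. The mean of log2((5p + 0.5)/(3p + 0.5)) lay between 11.88 (null spermatocytes) and 13.57 (heterozygous round spermatids) for miR-21a. For miR-221 it lay between -4.90 (wild-type round spermatids) and -3.10 (heterozygous spermatocytes), and for miR-222 between -4.84 and -3.11. In heterozygous round spermatids, replicate 2, the 2 arms of miR-222 had 3 counts each.

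The libraries held between 182904 and 1072637 counts. A miRNA without any read could still stand at 3 counts, or between 2.74 and 19.998 CPM depending on the library. Levels below are CPM scaled by TMM factors over the 24 libraries. A miRNA was tested where 3 or more libraries of the fit held 10 counts or more, and 3 of the 6 members (miR-21a-5p, miR-221-3p and miR-222-3p) passed in every fit and the other 3 in none. At these depths miR-21a-5p rested on 654 to 8597 counts per library, miR-221-3p on 3 to 50 and miR-222-3p on 1 to 49. Because the samples are bulk fractions, more cells of a type and more RNA per cell cannot be told apart. The p-values set a difference against the spread between libraries of the same group, estimated jointly over all groups of a fit.

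mmu-miR-21a-5p was among the abundant miRNAs of both cell types in every genotype, at rank 22 to 32 by group mean. It took between 0.358% and 1.51% of all miRNA counts in a library. Wild-type spermatocytes were at 9106, 7778, 8739 and 9924 CPM in replicates 1 to 4, a mean of 8887 ± 890 CPM (SD, n = 4). Heterozygous spermatocytes were at 11648, 7707, 9288 and 7791 CPM (9109 ± 1842), and null spermatocytes at 8615, 4360, 11459 and 8973 CPM (8351 ± 2947). The 3 genotypes overlapped in spermatocytes, and the null group held both the lowest of the 24 libraries and the second highest of the spermatocyte libraries.

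In round spermatids, wild-type libraries were lowest. They were at 5232, 6588, 8448 and 8737 CPM (7251 ± 1649), against 14182, 10835, 9641 and 9371 CPM in heterozygous libraries (11007 ± 2210) and 10570, 11475, 10417 and 8828 CPM in null libraries (10322 ± 1100). All 4 wild-type values were below every heterozygous and every null value, although the highest wild-type and the lowest null library were close, at 8737 and 8828 CPM. Among all pairs of the 6 groups, these 2 were the only ones without overlap for any of the 3 tested members.

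**Figure D1:**
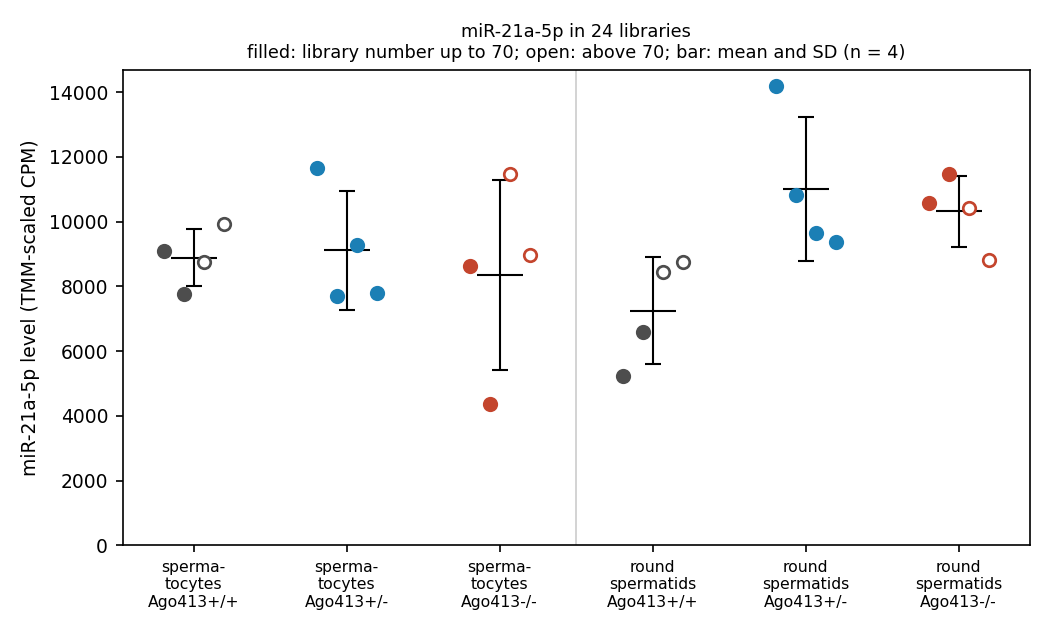
Level of miR-21a-5p (TMM-scaled CPM, vertical axis from 0) in each of the 24 libraries by cell type and genotype, with the mean and SD of the 4 libraries as a bar, and with library numbers up to 70 filled and above 70 open. Wild-type round spermatids (5232 to 8737 CPM) lie below the other 2 genotypes of that cell type, and their 2 lowest points are the filled ones.

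The first question was whether loss of the 3 Argonautes changed the members within a cell type. In null against wild-type round spermatids, miR-21a-5p was higher by 0.66 on the log2 scale (SE 0.21, 95% interval 0.22 to 1.11), with an adjusted p of 0.0306 in edgeR's quasi-likelihood test (Benjamini-Hochberg over all miRNAs tested). This passed the threshold on the adjusted p and not the threshold of 1 on the absolute log2 fold change, so 0 of the 3 tested members were called by both, where 16.2% of the 426 miRNAs tested were. Unadjusted, 2 of the 3 were under 0.05, as were 36.2% of all miRNAs, and DESeq2 called 0 members. On the adjusted p alone, 23.7% of all miRNAs passed, and 23.7% had groups that did not overlap, so 1 of 3 members in either count did not stand out from the background.

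The size of this difference depended on the wild-type libraries. Without wild-type replicate 1 it was 0.31 (adjusted p = 0.351), and over the 8 fits that left out 1 library it ran from 0.31 to 0.69, with an adjusted p under 0.05 in 2 of them. DESeq2 gave 0.56 (adjusted p = 0.0576) and library totals without scaling 0.44 (adjusted p = 0.126). With library totals the 2 groups overlapped, at 5557 to 8865 CPM in wild type and 8507 to 10426 in null, whereas under RLE scaling they did not (4933 to 8776 against 8936 to 11327).

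The labels number the libraries, and wild type and null have 2 libraries each with a number up to 70 and 2 above 70. Among the lower numbers, mean miR-21a-5p was 5910 CPM in wild-type and 11022 CPM in null round spermatids, a log2 ratio of 0.90. Among the higher numbers the means were 8593 and 9622 CPM, a log2 ratio of 0.16. The direction was the same in both sets. The fit with a term for the number gave 0.68 (adjusted p = 0.0344). What the number stands for is not given in the sources used here.

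Heterozygous round spermatids were higher than wild type by 0.69 for miR-21a-5p (SE 0.21, 95% interval 0.24 to 1.13), beside 0.66 in the null, with an unadjusted p of 0.00479 and an adjusted p of 0.190 in edgeR's quasi-likelihood test. No member was called of the 3 tested, against 0% of all 426 miRNAs by edgeR and 6 miRNAs by DESeq2, which also called 0 members. Unadjusted, 2 of the 3 members were under 0.05, where 16.0% of all miRNAs were. Without overlap were 1 of 3 members and 5.4% of all miRNAs. All 4 heterozygous libraries had numbers up to 70. Null minus heterozygous was -0.02 for miR-21a-5p in round spermatids (95% interval -0.47 to 0.42). The 2 comparisons with wild type share its 4 libraries.

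In spermatocytes the differences of miR-21a-5p were smaller than their errors. Null against wild type gave -0.11 (SE 0.29, 95% interval -0.74 to 0.51), heterozygous against wild type 0.07 (-0.55 to 0.70), and null against heterozygous -0.19 (-0.81 to 0.44). The low null library, replicate 2, was also the shallowest, and without it the null difference was 0.10. Of the 3 members, edgeR and DESeq2 called 0 in each of these 3 comparisons and 0 were under an unadjusted 0.05, where edgeR called 4.46% of the 404 miRNAs for null against wild type, 0% for heterozygous against wild type (13 under an unadjusted 0.05, 0 called by DESeq2) and 2.23% for null against heterozygous.

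Whether the genotype effect differed between the cell types was tested in the fit of all 24 libraries. For miR-21a-5p the null effect was larger by 0.60 in round spermatids than in spermatocytes (SE 0.36, 95% interval -0.14 to 1.34, adjusted p = 0.416 in edgeR's quasi-likelihood test), and the heterozygous effect by 0.57 (SE 0.36, adjusted p = 0.994). Neither passed, and no miRNA of the 450 tested did (0% in both), with edgeR or DESeq2, while 55 and 12 miRNAs were under an unadjusted 0.05. A difference of the null effect between the cell types was thus not detectable, and the interval still allows one of 1.34.

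The second question was whether the levels differed between spermatocytes and round spermatids of 1 genotype. For miR-21a-5p, round spermatids minus spermatocytes was -0.29 in wild type (95% interval -0.81 to 0.23), 0.27 in heterozygous (-0.25 to 0.79) and 0.31 in null (-0.22 to 0.83). Of the 3 tested members, 0 were called by edgeR or DESeq2 and 0 were under an unadjusted 0.05 in any of the 3 genotypes, where edgeR called 0% of the 450 miRNAs in wild type (10 under an unadjusted 0.05, 0 called by DESeq2), 0% in heterozygous (15 under an unadjusted 0.05, 0 called by DESeq2) and 4.89% in null. The labels number the libraries of the 2 cell types consecutively within a replicate, in 3 of 4 wild-type, 4 of 4 heterozygous and 4 of 4 null replicates, and the sources used here do not say whether these came from the same mice. Replicate by replicate, miR-21a-5p was lower in round spermatids in 4 of 4 wild-type replicates (log2 ratios -0.80, -0.24, -0.05 and -0.18), higher in 4 of 4 heterozygous replicates (0.28, 0.49, 0.05 and 0.27), and higher in 2 of 4 null replicates (0.30, 1.40, -0.14 and -0.02). With 4 pairs an exact two-sided permutation test cannot give a p below 0.125.

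By group mean the order ran from heterozygous round spermatids (11007 CPM) through null round spermatids, heterozygous, wild-type and null spermatocytes to wild-type round spermatids (7251 CPM), and each group overlapped with the next.

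miR-221-3p and miR-222-3p were far rarer, at group means of 26.2 to 52.4 CPM and 13.1 to 27.7 CPM. By mean CPM over the 24 libraries, miR-21a-5p was 228 times miR-221-3p. Over all libraries, miR-221-3p had 1.78 times the counts of miR-222-3p, and it was the higher of the 2 in 21 of 24 libraries. The mean log2 ratio of miR-221-3p to miR-222-3p lay between 0.46 in wild-type round spermatids and 1.32 in null round spermatids, with SDs of 1.29 and 0.40, and the groups overlapped. The 3 libraries with more miR-222-3p were wild-type spermatocytes replicate 4, wild-type round spermatids replicate 2 and heterozygous round spermatids replicate 3.

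For mmu-miR-221-3p, wild-type spermatocytes were at 83.1, 28.8, 56.2 and 12.7 CPM, heterozygous at 20.8, 22.7, 35.3 and 56.0 CPM, and null at 36.5, 19.998, 88.97 and 57.8 CPM. The range within wild type alone, 12.7 to 83.1 CPM, covered the whole heterozygous group and most of the null group. Null against wild type was 0.13 (95% interval -1.03 to 1.29) and heterozygous against wild type -0.44 (-1.59 to 0.71). The sign of the former differed between the sets of library numbers: the null mean was 28.2 CPM against 55.9 CPM among numbers up to 70, and 73.4 CPM against 34.4 CPM above 70. Each of these means rests on 2 libraries with few counts, and whether the difference changed with the number was not tested.

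In round spermatids, miR-221-3p was at 40.7, 21.9, 33.9 and 33.6 CPM in wild type, 21.4, 36.8, 15.2 and 31.6 CPM in heterozygous, and 63.2, 27.9, 38.7 and 79.8 CPM in null libraries. The 2 highest values were null, and the groups overlapped. Null against wild type was 0.85 (SE 0.37, 95% interval 0.07 to 1.64) with an unadjusted p of 0.0348 and an adjusted p of 0.103 in edgeR's quasi-likelihood test. Leaving out 1 library gave 0.51 (without wild-type replicate 2) to 1.05 (without null replicate 2). Null against heterozygous was 1.05 (SE 0.38, 95% interval 0.25 to 1.84, adjusted p = 0.0591 in the same test). In the latter comparison 0 of 3 members were called by edgeR or DESeq2, with 1 under an unadjusted 0.05, where edgeR called 12.4% of all miRNAs and 33.8% were under an unadjusted 0.05. Without null replicate 2 it was 1.24 with an adjusted p of 0.0340, and miR-221-3p then passed both thresholds.

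For mmu-miR-222-3p, spermatocytes were at 39.9, 15.1, 31.6 and 15.9 CPM in wild type, 11.9, 9.94, 21.2 and 31.1 CPM in heterozygous, and 13.0, 6.67, 40.8 and 19.3 CPM in null libraries. The null value of 6.67 CPM was a single count in the shallowest library. Null against wild type was -0.36 (95% interval -1.54 to 0.82) and heterozygous against wild type -0.50 (-1.62 to 0.63). Here too the sign for the null differed between the sets of library numbers, with means of 9.84 CPM against 27.5 CPM up to 70 and 30.0 CPM against 23.7 CPM above 70. These means also rest on 2 libraries each, and a change with the number was not tested.

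In round spermatids, miR-222-3p was at 38.7, 44.8, 6.77 and 20.4 CPM in wild type, 9.90, 5.02, 20.3 and 17.2 CPM in heterozygous, and 16.6, 13.9, 15.5 and 34.5 CPM in null libraries. Wild type held both the 2 highest levels and 1 of the lowest. Heterozygous against wild type was -1.13 (SE 0.53, 95% interval -2.25 to -0.01) with an unadjusted p of 0.0474 and an adjusted p of 0.310 in edgeR's quasi-likelihood test, and null against wild type was -0.42 (-1.49 to 0.64). The 2 high wild-type libraries were those numbered up to 70: null libraries averaged 15.3 CPM there against 41.7 CPM, and above 70 the wild-type mean of 13.6 CPM was the lower, so the sign turned between the sets (log2 ratios of -1.45 and 0.88).

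**Figure D2:**
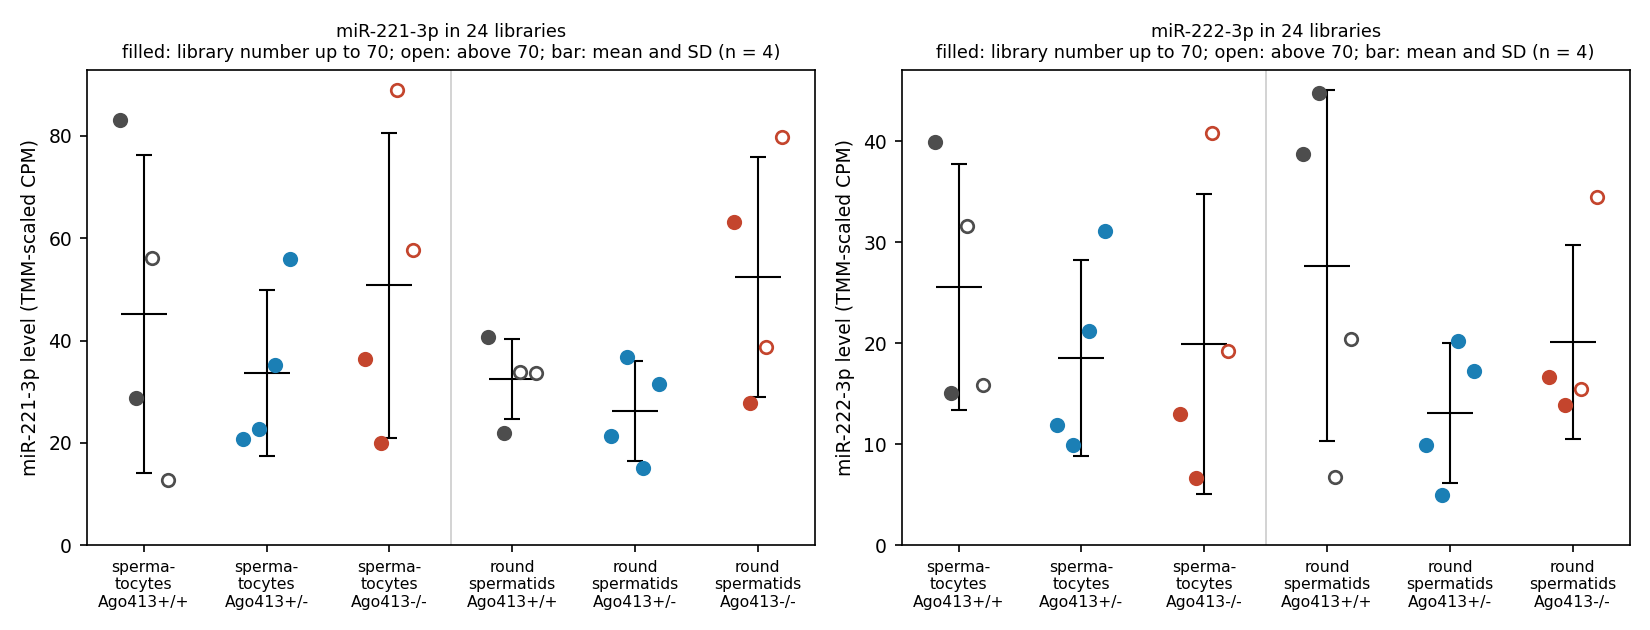
Levels of miR-221-3p (left) and miR-222-3p (right) in TMM-scaled CPM, axes from 0, for each of the 24 libraries, with the mean and SD of the 4 libraries of a group as a bar and with library numbers up to 70 filled and above 70 open. All groups overlap, and in wild-type spermatocytes miR-221-3p alone spans 12.7 to 83.1 CPM.

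The 2 miRNAs share a seed and lie 504 bp apart, but their values for the null in round spermatids were 0.85 and -0.42. Summed over the seed, the family gave 0.18 for null against wild type and -0.64 for heterozygous against wild type in round spermatids, neither called. Between round spermatids and spermatocytes, miR-221-3p gave -0.53, -0.31 and 0.02 in wild type, heterozygous and null, and miR-222-3p 0.15, -0.47 and -0.04. The 95% intervals for miR-222-3p between cell types reached from -1.67 (heterozygous) to 1.18 (wild type), so differences of that size were not resolved in either direction. The null interaction with cell type was 0.55 for miR-221-3p and -0.20 for miR-222-3p.

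The variance between the 4 libraries of a group was 1.58 to 9.87 times that expected from counting alone for miR-221-3p. It was 2.03 to 5.21 times for miR-222-3p and 45.7 to 263 times for miR-21a-5p. With 4 libraries in a group, the lower ratios of miR-221-3p and miR-222-3p can arise from counting alone. For miR-21a-5p, with 654 or more counts in each library, counting error made up the smallest share of the spread.

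**Figure D3:**
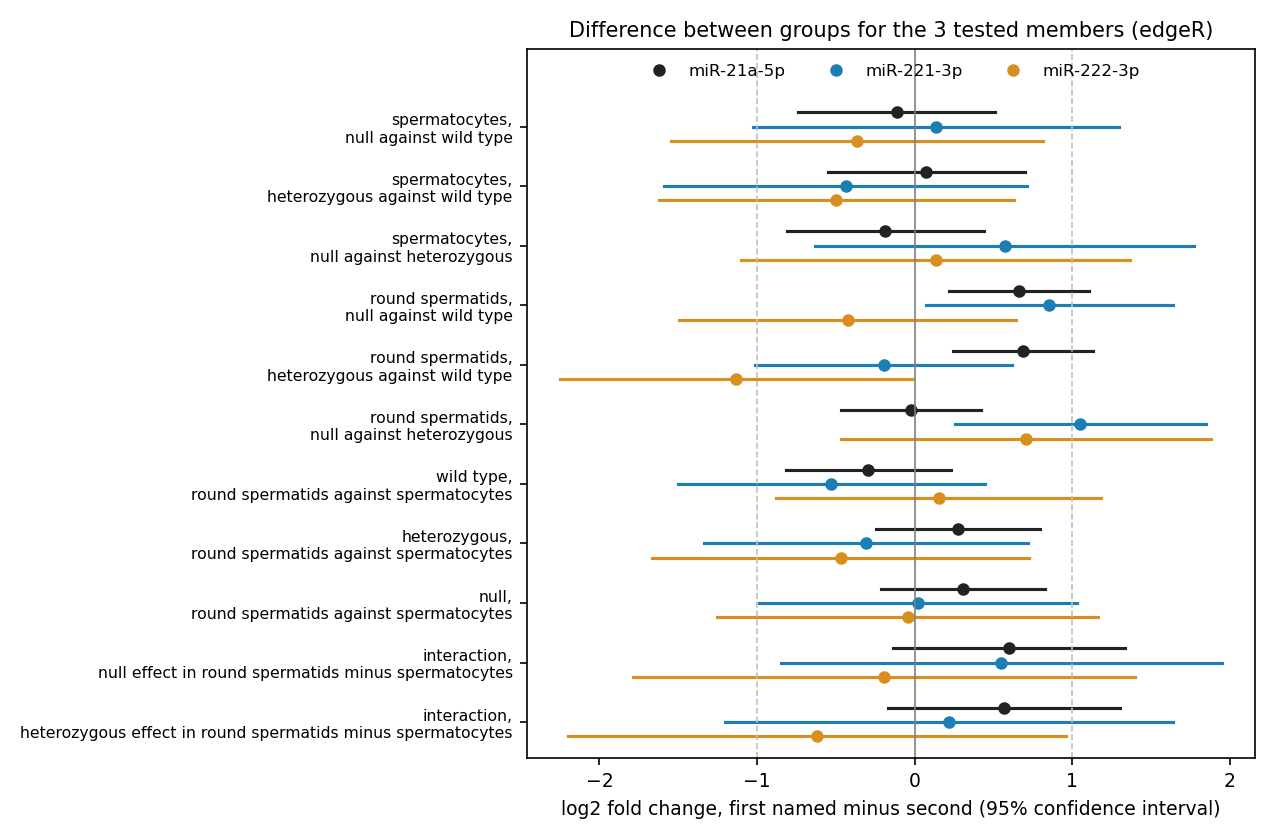
Log2 fold change (horizontal axis, first named group minus second, with 95% confidence intervals) of miR-21a-5p, miR-221-3p and miR-222-3p in 9 comparisons of groups and 2 interactions; dashed lines mark -1 and 1. The intervals of miR-21a-5p in round spermatids lie above 0 for null and heterozygous against wild type (0.66 and 0.69) and include 0 in all 3 comparisons of spermatocytes.

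Some markers of germ cells and of other cells differed between genotypes in the same round spermatid libraries. Of the 3 meiotic germ cell miRNAs, all detected, miR-449a-5p was at 3167 to 4219 CPM in wild type, 5271 to 10831 CPM in heterozygous and 4722 to 7553 CPM in null libraries, so that wild type was below both without overlap, as for miR-21a-5p. Its difference was 0.98 for null (adjusted p = 0.0110) and 1.13 for heterozygous (adjusted p = 0.0617) against wild type in edgeR's quasi-likelihood test, neither called. Over the 3, the lowest difference for null was 0.16 and the median 0.21, against a median of 0.13 for all 426 miRNAs. The sum of the 3 overlapped, at 59253 to 108408 CPM in wild type, 86584 to 186145 CPM in heterozygous and 70397 to 133847 CPM in null.

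The 5 leukocyte miRNAs (miR-142a-3p, miR-142a-5p, miR-150-5p, miR-155-5p and miR-223-3p), all detected, summed to 213.9 to 419 CPM in wild type, 419 to 589 CPM in heterozygous and 487 to 645 CPM in null libraries. As for miR-21a-5p, wild type did not overlap with either group, though its highest sum and the lowest heterozygous sum were nearly equal. Most of the sum was miR-142a-5p, at means of 178, 307 and 367 CPM in wild type, heterozygous and null. In null against wild type, 2 of the 5 leukocyte miRNAs rose, miR-142a-5p by 1.18 (adjusted p = 0.0122) and miR-223-3p by 2.65 (adjusted p = 0.00997) in edgeR's quasi-likelihood test. Of all 426 miRNAs tested, 7.51% were called higher in that comparison. The call of miR-142a-5p was lost without wild-type replicate 1 or 2, and it held under 6 of 9 other settings. Without null replicate 3 or 4 miR-223-3p fell under the filter. miR-223-3p was near the floor, with 9 counts over the wild-type and 40 over the null libraries. It passed the filter only through 1 heterozygous and 2 null libraries, from the groups where it was high. In heterozygous against wild type 0 of the 5 were called, as were 0% of all miRNAs. Of the 5, 4 were higher there, while miR-150-5p was lower by -1.42, at a mean of 9.21 against 24.6 CPM. Without overlap in that comparison were 1 of the 5 and 5.4% of all miRNAs.

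The 2 endothelial miRNAs (both arms of miR-126a) summed to 511 to 1990 CPM in wild type, 858 to 1160 CPM in heterozygous and 1951 to 5858 CPM in null round spermatids, with 1 of 2 higher in the null, miR-126a-3p by 1.63 (adjusted p = 0.0120, edgeR), a call lost without wild-type replicate 1 or null replicate 1, and in the fit of all 24 libraries. The 3 mesenchymal miRNAs (miR-199a-3p, miR-199a-5p and miR-214-3p) summed to 1728 to 3551, 1341 to 2877 and 3405 to 5352 CPM, with 1 of 3 higher in the null, miR-199a-3p by 1.14 (adjusted p = 0.00997, edgeR), a call lost without wild-type replicate 1 or 4 or null replicate 1, and under 4 of 9 other settings. Of 2 peritubular miRNAs, 0 were called, and both were lower in the null than in wild type, miR-143-3p by -0.14 and miR-145a-5p by -1.74. Their sum ran from 1060 to 8555 CPM in wild type and 2031 to 3444 CPM in null. Of 3 erythroid miRNAs, 2 were tested and both were higher in the null, miR-451a by 3.26 and miR-486a-5p by 2.11, with sums of 49.2 to 501 CPM in wild type and 103 to 4813 CPM in null. The highest sum was that of null replicate 4, and 0 of the erythroid miRNAs were called without it, or without wild-type replicate 1, 2 or 4. Under other settings, miR-451a was called in 7 of 9 and miR-486a-5p in 3 of 8. Beside these lists, 7.51% of all 426 miRNAs were called higher in null against wild-type round spermatids. In null against wild-type spermatocytes, 0 members of any of these lists were called, where 4.46% of all 404 miRNAs were. The part of any of these cells in the levels of miR-21a-5p, miR-221-3p and miR-222-3p was not tested.

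**Figure D4:**
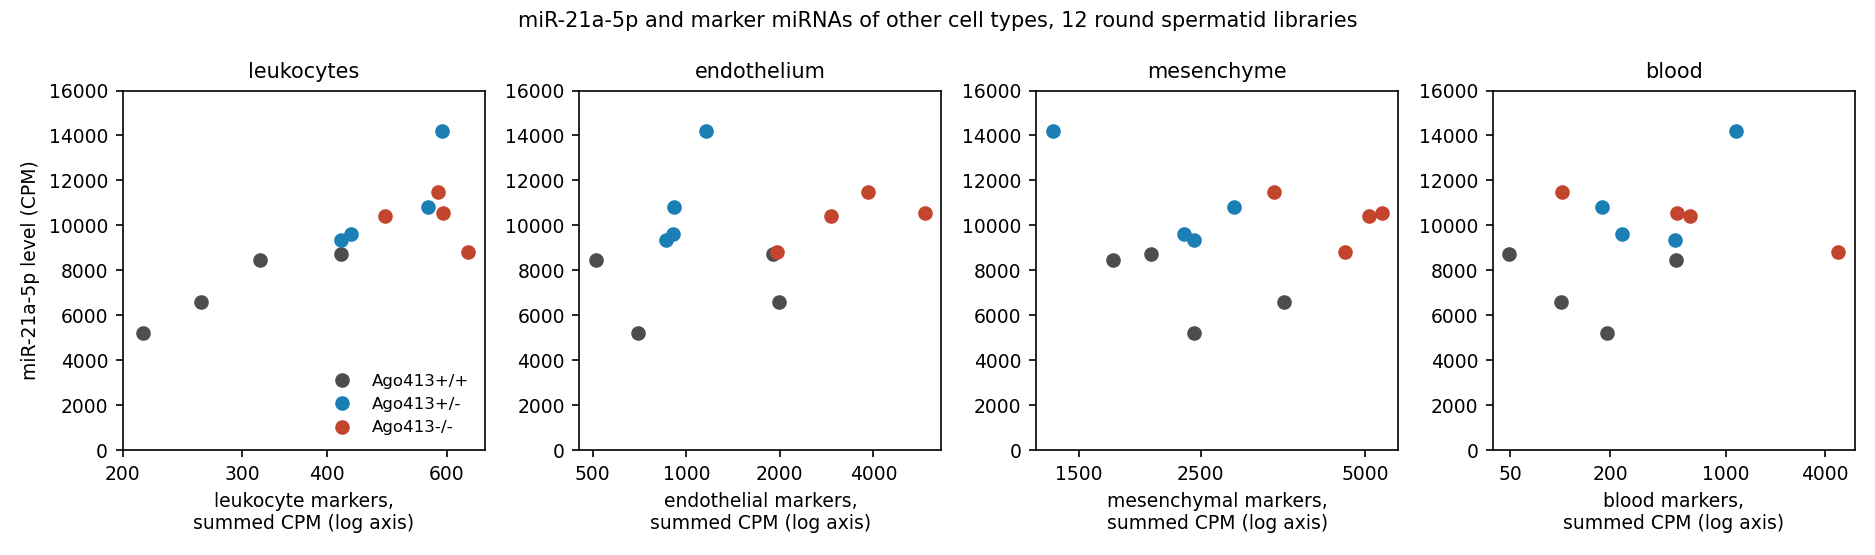
Level of miR-21a-5p (CPM, vertical axis from 0) against the summed CPM (log axes) of marker miRNAs of leukocytes, endothelium, mesenchyme and blood in the 12 round spermatid libraries, coloured by genotype. The 4 wild-type libraries hold the 4 lowest miR-21a-5p levels and the 4 lowest leukocyte sums (213.9 to 419 CPM), while blood markers reach 4813 CPM in a single null library. The highest wild-type and the lowest heterozygous leukocyte sums are nearly equal, at 418.81 and 418.93 CPM.

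Across the 24 libraries, the miRNAs whose log2 CPM was most like that of miR-21a-5p, of those tested over the 24 libraries, were miR-19a-3p (Pearson r = 0.86, Spearman rho = 0.77), miR-16-5p (r = 0.82) and miR-872-5p (r = 0.82). Taken as deviations from the 6 group means, r was 0.83, 0.77 and 0.77, and without the 2 libraries farthest from the median of miR-21a-5p it was 0.67, 0.57 and 0.66. miR-221-3p stood at place 258 (r = 0.08) and miR-222-3p at place 310 (r = -0.13).

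miR-221-3p was most like miR-379-5p (r = 0.63), miR-24-3p (r = 0.62) and miR-127-3p (r = 0.61), and miR-222-3p most like miR-150-5p (r = 0.65), miR-1839-3p (r = 0.65) and miR-127-3p (r = 0.64). With each other the 2 had r = 0.50 and rho = 0.50, at place 20 in the order for miR-221-3p and place 10 in that for miR-222-3p. These are descriptions over libraries that share depth and scaling, and at a few counts per library they are weak.

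A wider list of 20 miRNAs reported from undifferentiated or cultured spermatogonia, or from clusters known to act there, was read beside the members. It too was chosen with earlier results of these data known, so its direction is not independent evidence. In null against wild-type round spermatids 19 were tested, 5 rose and 0 fell, and the median was 0.51 against 0.13 for all 426 miRNAs, of which 7.51% were called higher. The 5 were miR-146a-5p (2.57, from 669 ± 336 to 3505 ± 621 CPM), miR-202-5p, a miRNA also of Sertoli cells (1.53), and miR-19b-3p (1.29), miR-20a-5p (1.10) and miR-18a-5p (1.00) of the miR-17-92 cluster, which promotes proliferation. Leaving out 1 library at a time left 3 to 5 of them called, with 3 without wild-type replicate 1 or 2 or null replicate 1 or 4, and the fit of all 24 libraries called 1, miR-146a-5p. miR-18a-5p was called under 0 of 9 other settings. Of the same cluster, miR-17-5p was at 0.51 and miR-92a-3p at 0.36, neither called. The median of the list was 0.36 in heterozygous against wild-type round spermatids, against 0.00 for all, with 0 called. In null spermatocytes it was 0.13 against -0.05, with 0 of 18 called.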

How the data were processed

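The authors trimmed the reads with Trim Galore, ran the miRDeep2 quantifier on the mature mouse miRNAs of miRBase and deposited raw counts per mature miRNA, 1978 in all, of which 754 had no count. A library was made from 100 ng of RNA. Genotype, cell type and replicate were taken from the labels, and 0 columns were left unused. Counts were tested with edgeR 4.0.16 in R 4.3.3 (TMM scaling, quasi-likelihood test, no covariate, 10 counts or more in 3 or more libraries), within each cell type for genotype and over 24 libraries for cell type and interactions. p-values were adjusted by Benjamini-Hochberg over all miRNAs of a fit, and a miRNA was called where the adjusted p was below 0.05 and log2 fold change was 1 or more in size (interactions: the adjusted p alone). Levels are CPM with TMM factors over the 24 libraries. Likeness is Pearson's r of log2 CPM with a prior of 2. The fits were tested on simulated data.

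The members were taken by name. Also named, by rule, are near copies, miRNAs with the same seed, the 3 most alike of each leading arm, the spermatogonial list and marker lists. Members and lists were chosen with earlier results of these data known, and the call on the adjusted p alone and the repeats of the lists were added after seeing the data. The alternatives were DESeq2 1.42.0, other scalings and filters, seed families, a replicate block, a term for the library number, other sets of libraries in the fit, a pseudocount of 5 and leaving out each library. Hairpin positions and sequences are RefSeq GRCm38.p6, and gene overlaps GENCODE of the same build.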

Additional observations from a re-analysis of the deposited data

Results flagged for a closer look

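Of 78 groups of 4 libraries examined, 4 had a library far from the other 3 by Dixon's test, and chance gives about 3.9. miR-222-3p was at 34.5 CPM in null round spermatids, replicate 4, with the others at 13.9 to 16.6 CPM. The same library had a sum of 4813 CPM for the erythroid markers, against 103 to 612 CPM in the other 3. In wild-type spermatocytes, replicate 2, the 6 members held 0.794% of counts, against 1.01% to 1.05% in the others. In wild-type round spermatids, replicate 1, the peritubular markers summed to 8555 CPM, against 1060 to 1668 CPM, and this is also the library with the lowest miR-21a-5p of its group.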

How the results depend on the processing

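No result changed its direction and its call together. For the 3 tested members, 596 of 597 repeated values kept their call. The count of called members moved from 0 to 1 in null against wild-type round spermatids on the adjusted p alone (miR-21a-5p), and ran from 0 to 1 in null against heterozygous round spermatids when 1 library was left out (miR-221-3p without null replicate 2). Leaving out 1 library moved no other count of called members. Over the 10 other settings, miR-21a-5p in null against wild-type round spermatids ran from 0.43 to 0.68, with an adjusted p of 0.0344 to 0.394, under 0.05 in 2 of 10. In that comparison, the other settings called 1 to 4 of the spermatogonial list, where 5 were called, and 0 to 2 of the leukocyte and of the erythroid miRNAs, where 2 of each were, 0 to 2 of the endothelial, where 1 was, and 0 to 1 of the mesenchymal, where 1 was. Of the peritubular miRNAs, where 0 were called, 1 was called without a filter on low counts. The cause was not tested.

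The replicate numbers were not taken to pair the libraries. The deviations of same-numbered libraries from their group means correlated at -0.35 to 0.42, over 0.1 for all 4 numbers in 0 of 9 pairs of groups, and in 0 of 9 did every library correlate best with its own number. Between the cell types of 1 genotype, r was 0.35, 0.36, -0.18 and 0.32 in wild type. It was 0.03, 0.42, 0.04 and 0.22 in heterozygous and 0.28, -0.05, -0.15 and 0.08 in null. The other pairs compare genotypes, so the counts over 9 pairs do not decide whether the cell types shared mice. With the replicate block, miR-21a-5p in null against wild-type round spermatids was at 0.66 with an adjusted p of 0.0712 in edgeR. The count of called members was then 0 in each comparison. Between the cell types, the block gave -0.32 in wild type (adjusted p = 0.985), 0.27 in heterozygous (adjusted p = 0.996) and 0.37 in null (adjusted p = 0.391) for miR-21a-5p in edgeR.

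With a pseudocount of 5 in place of 0.5, the log2 ratio of the arms moved for miR-21a to 9.83, 9.58 and 8.56 in wild-type, heterozygous and null spermatocytes and 9.74, 10.25 and 9.95 in round spermatids. For miR-221 it moved to -1.73 in null spermatocytes and to -2.23 and -2.34 in wild-type and null round spermatids. For miR-222 it moved to -1.97, -1.295 and -0.95 in wild-type, heterozygous and null spermatocytes and to -2.08 and -1.61 in wild-type and null round spermatids. The leading arm was the same at both pseudocounts. The minor arms, with 0 to 4 counts per library, cannot be compared between groups at this depth.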
